A study of Mus musculus with 8 samples.

Results

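Ankrd37, Ero1l, Vegfa, Slc2a1, Pdk1, Ldha, Bnip3, Egln3, Ndrg1 and Pgk1 are 10 genes of the hypoxia response and glycolysis, taken by symbol from the 32285 genes of the mouse count matrices. They were chosen by their values in earlier results of these same libraries, namely their level in cocultured against control organoids, in organoids against tissue epithelium and in crypt against tip or surface spots, so those values are a description with no test. The series holds 8 libraries from C57BL/6 mice. A control library and a cocultured library of small intestinal organoids at passage 1 each came from 16 pooled wells sorted for epithelial cells, and the labels do not name the cells the organoids were cocultured with. Dissociated small and large intestine gave 1 library each, from live cells enriched by sorting for LGR5+ stem cells and for CD31+ PDPN+ LYVE1+ lymphatic endothelial cells, with Lgr5-eGFP-ires-CreERT2 mice used beside C57BL/6 in the sorts. Visium spatial libraries were made from 10 µm cryosections of small and of large intestine, with 2 technical duplicates of each tissue. No condition had more than 1 single-cell library, so no comparison below has a replicate check, and the intervals cover counting error only.

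When oxygen is short, prolyl hydroxylases no longer mark the HIF transcription factors for degradation, and HIF dimers bind the core sequences ACGTG and GCGTG near their target genes. Classical targets move glucose into the cell, speed its breakdown to lactate, hold pyruvate back from the mitochondria and call in blood vessels. In the intestine, oxygen is low at the villus tip and at the colonic surface next to the anaerobic lumen, and it is higher toward the crypt base. Among the members, Slc2a1 encodes the glucose transporter GLUT1, Pgk1 an ATP-forming enzyme of glycolysis, Ldha the lactate dehydrogenase A subunit and Pdk1 a kinase that inhibits pyruvate dehydrogenase. Vegfa encodes a secreted angiogenic factor, Egln3 a prolyl hydroxylase that is itself a HIF target, Ero1l an endoplasmic reticulum oxidoreductase that helps form disulfide bonds, and Bnip3 a mitochondrial protein that promotes mitophagy. Ankrd37 encodes an ankyrin repeat protein, and Ndrg1 a stress-responsive cytoplasmic protein.

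The sequences before the transcription start are shown for 5 members because they carry the letters that HIF is known to bind. They come from RefSeq on GRCm38.p6, run 5′ to 3′ on the gene's strand up to the annotated gene start, and have ACGTG or GCGTG on either strand in capitals, so that overlapping matches form 1 longer run. The windows are chr7:138909507-138909756 (- strand) for Bnip3, chrX:106186850-106187099 (+ strand) for Pgk1, chr14:45318573-45318822 (- strand) for Ero1l, which RefSeq lists as Ero1a, chr12:54203875-54204124 (- strand) for Egln3 and chr2:71872974-71873214 (+ strand) for Pdk1.
Bnip3: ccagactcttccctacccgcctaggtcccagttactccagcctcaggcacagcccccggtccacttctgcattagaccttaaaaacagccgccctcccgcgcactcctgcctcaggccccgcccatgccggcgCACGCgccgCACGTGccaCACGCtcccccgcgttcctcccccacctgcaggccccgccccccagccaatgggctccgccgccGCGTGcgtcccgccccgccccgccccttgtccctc
Pgk1: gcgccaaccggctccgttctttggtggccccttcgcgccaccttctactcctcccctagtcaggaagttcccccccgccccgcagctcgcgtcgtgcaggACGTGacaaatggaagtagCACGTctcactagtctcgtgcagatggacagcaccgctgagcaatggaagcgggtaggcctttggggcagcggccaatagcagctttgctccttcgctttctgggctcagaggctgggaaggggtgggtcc
Ero1l: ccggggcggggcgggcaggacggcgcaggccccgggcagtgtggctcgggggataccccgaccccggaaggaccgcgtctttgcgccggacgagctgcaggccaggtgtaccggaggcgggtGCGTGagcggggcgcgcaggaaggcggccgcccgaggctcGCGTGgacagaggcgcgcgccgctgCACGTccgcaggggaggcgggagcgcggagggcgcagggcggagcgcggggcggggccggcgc
Egln3: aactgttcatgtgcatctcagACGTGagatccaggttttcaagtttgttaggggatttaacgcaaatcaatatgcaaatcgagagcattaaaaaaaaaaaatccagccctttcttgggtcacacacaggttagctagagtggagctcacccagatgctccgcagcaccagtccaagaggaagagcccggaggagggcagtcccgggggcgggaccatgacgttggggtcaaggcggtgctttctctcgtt
Pdk1: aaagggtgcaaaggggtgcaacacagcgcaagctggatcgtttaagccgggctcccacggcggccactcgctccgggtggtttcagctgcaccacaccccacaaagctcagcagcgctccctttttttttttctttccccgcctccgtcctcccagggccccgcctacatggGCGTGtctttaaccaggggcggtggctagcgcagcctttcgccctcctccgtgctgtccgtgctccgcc

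RefSeq's promoter table held 9 of the 10 members with 12 start sites, and Ndrg1 was not in it. In the 250 bases before the start, 10 of these 12 held ACGTG or GCGTG on either strand, and 12679 of all 32851 promoters of that length did (38.6%). Bnip3 had 5 matches, Ero1l had 3, Pgk1 had 2, and Egln3 and the first Pdk1 start had 1 each. Ankrd37 had 4 matches, the nearest beginning 6 bases before its start, and the first Ldha start had 5. Slc2a1 had 2. The windows of the first Vegfa start and of the second Pdk1 start held no match, and that of the second Vegfa start held 2. A match is a description of the letters and not a binding site.

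After filtering, 538 control and 1028 cocultured organoid cells were kept, with medians of 73663.5 and 86295 unique molecular identifiers (UMIs, each counting 1 captured RNA molecule). The small intestinal tissue library kept 2695 cells and the large intestinal one 5882, with medians of 11810 and 21761 UMIs. Of 8842 barcodes from small intestinal tissue, 5497 were dropped for holding over 20% mitochondrial UMIs. The Visium sections kept 2094 to 2571 spots. The small and large intestinal tissue libraries shared 25 cell barcodes, the organoid libraries shared 0, and the other single-cell pairs shared 1 to 4. The design text says that control and cocultured organoid cells were put together before submission, and how they were told apart afterwards is not given in the sources used here. Levels are given as CPM, a gene's UMIs scaled to the total UMIs of its library or group. Ldha, Pgk1 and Gapdh have processed pseudogenes of near-identical sequence, so their counts are uncertain to the extent that reads were assigned between copies.

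All 10 members had higher CPM in both organoid libraries than in the dissociated tissue libraries. Ankrd37 was at 109 CPM in control organoids, 132 in cocultured organoids, 3.95 in small intestinal cells and 3.54 in large intestinal cells. Egln3 was at 157, 115, 7.07 and 5.76 CPM in the same order. Bnip3 was at 56.1, 47.0, 3.49 and 3.59 CPM. For each of these 3 genes the tissue libraries lay far below the organoids and close to each other. Pdk1 had the narrowest gap, at 44.8 and 35.8 CPM in organoids and 20.0 and 17.5 CPM in the tissue libraries. The Visium sections, which keep the tissue whole, held most members at higher levels than the dissociated tissue. The exceptions in the small intestine were Ndrg1, at 57.2 and 58.0 CPM in the sections and 73.2 CPM in the cells, and Pdk1, nearly level at 21.4 and 20.8 against 20.0 CPM. Egln3 reached 181 and 238 CPM in the small intestinal sections, above both organoid libraries, and 65.3 and 67.3 CPM in the large intestinal ones. Vegfa in small intestinal section 2 (67.4 CPM) was close to control organoids (66.8 CPM), and Slc2a1 in the large intestinal sections (105 and 110 CPM) was close to control organoids (107 CPM). Dissociated and sectioned libraries differed in chemistry and in the cells they held, and these cannot be told apart.

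**Figure D1:**
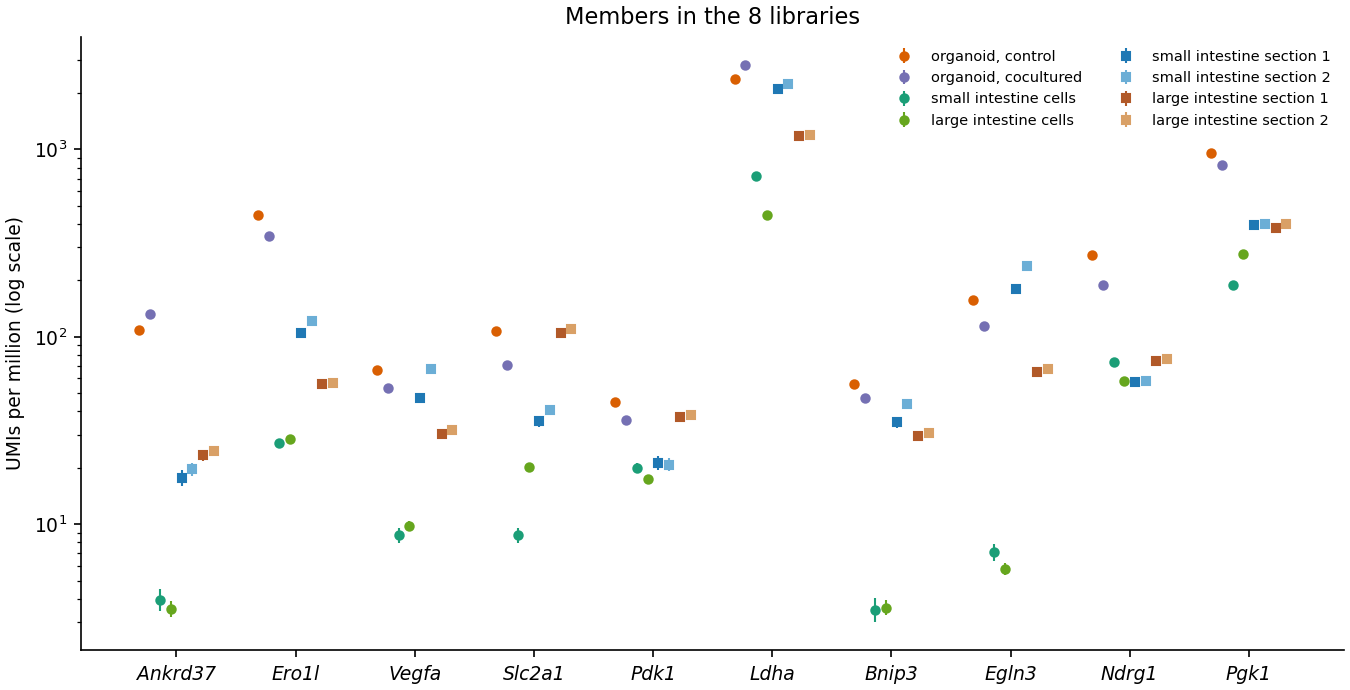
CPM (log axis) of each member in the 8 libraries, circles for single-cell and squares for Visium libraries, with exact Poisson intervals at 95% that cover counting error only. Egln3 in the small intestinal sections (181 and 238) lies above both organoid libraries (157 and 115), while the dissociated tissue libraries lie lowest for 9 of the 10 genes.

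Set against the small intestinal tissue epithelium, 1413 cells of the named epithelial clusters, the organoids stood higher for every member. All 10 members were at least 2-fold higher in control organoids, where 12.1% of the 14144 genes with enough UMIs were at least 2-fold higher and 17.8% lower. In cocultured organoids 9 of 10 were, against 10.6% of 14535 genes higher and 20.9% lower, and Pdk1 stayed below 2-fold (log2 ratio 0.83, 95% interval 0.72 to 0.94). The rule for choosing the members used this contrast, so the counts are a description. The organoid libraries are both set against the same tissue cells.

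Ankrd37 was 35.0-fold higher in control organoids (109 against 3.13 CPM, log2 ratio 5.13, interval 4.87 to 5.40). The prolyl hydroxylase gene Egln3 was 23.3-fold higher, at 157 against 6.75 CPM. Bnip3 was 17.9-fold and Ero1l 17.0-fold higher. These were the members with the highest ratios in control organoids. The glucose transporter Slc2a1 was 12.3-fold higher and Vegfa 6.37-fold higher. The enzymes of the pathway had smaller ratios, 5.09-fold for Pgk1 and 3.37-fold for Ldha, and Pdk1 was 2.22-fold higher. The median log2 ratio was 3.15 over the members and 0.08 over all genes with enough UMIs.

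**Figure D2:**
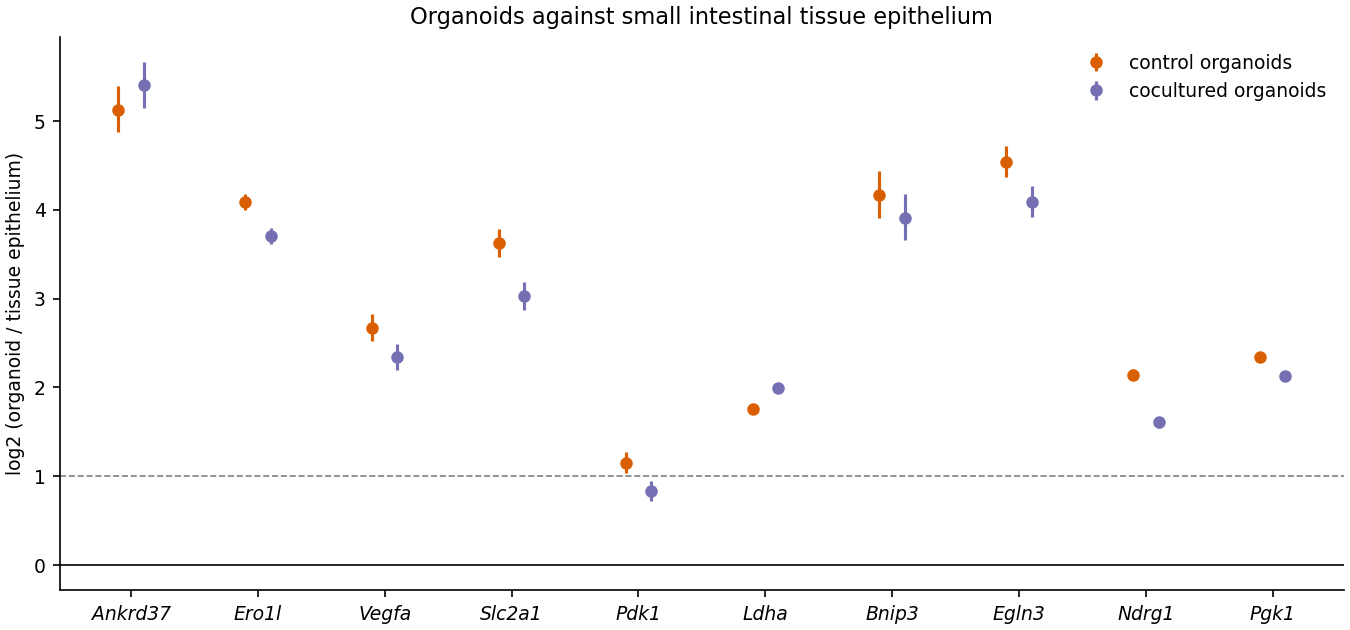
Log2 ratio of each member in control and cocultured organoids over small intestinal tissue epithelium, with 95% counting intervals, a solid line at 0 and a dashed line at 1 (2-fold). Ankrd37 is highest in both (5.13 and 5.40) and Pdk1 lowest (1.15 and 0.83).

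The difference was present inside matching cell classes. Between cycling-like cells, 103 in control organoids and 292 in tissue, 9 of 10 members were at least 2-fold higher in the organoids, and between enterocyte-like cells, 54 and 333, it was again 9 of 10. Pdk1 was the exception in both, with log2 ratios of 0.88 and 0.73. In enterocyte-like cells Ankrd37 stood at 190 CPM in control organoids and 4.003 CPM in tissue, and Slc2a1 at 85.7 and 4.44 CPM. The size of the ratio depended on the class. Egln3 had a log2 ratio of 8.13 between cycling-like and 3.04 between enterocyte-like cells, against 4.54 over all cells. Bnip3 had 5.82 and 3.32 in the same order, against 4.16. Ero1l was at 2.72 between cycling-like cells, against 4.09. Of all genes with enough UMIs, 6.83% were at least 2-fold higher and 14.3% lower between cycling-like cells, and 8.11% and 18.3% between enterocyte-like cells. In Paneth-like cells all 10 members were at least 2-fold higher, but so were 84.2% of all genes, with 2.81% lower and a median log2 ratio of 2.08, so the count says nothing about the members.

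Other genes of the same pathways were also higher. Of 16 glycolysis genes with enough UMIs, 14 were at least 2-fold higher in control organoids and 0 lower. Slc16a3, which exports lactate, was at 66.1 against 2.56 CPM, Gapdh at 3524 against 274 CPM and Pkm, the pyruvate kinase gene, at 1242 against 195 CPM. Of 19 other HIF targets, 15 were higher and 1 lower, and the vasodilator peptide gene Adm was at 14.9 against 0.199 CPM. Among 11 genes of mitochondrial pyruvate use 1 was higher, Pdk4, a sister of Pdk1. The unfolded protein and stress list moved as well, with 5 of 10 higher, among them Chac1 (28.9 against 2.18 CPM), Trib3 and Asns, which respond to amino acid shortage. The villus tip list had 4 of 4 genes higher in control organoids (median log2 ratio 2.35), and 2 higher and 1 lower in cocultured ones (0.69). The crypt list had 3 of 6 genes lower and 0 higher in each (medians -1.22 in control and -2.29 in cocultured organoids). The muscle, fibroblast and immune panels had no gene higher in either, and 4 of 4 immune panel genes with enough UMIs were lower in both. The part of these lists in the members' values was not tested.

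Within the organoids several members were carried by few cells. In the control library 38 of 538 cells held 50% of all Ankrd37 UMIs, 33 cells those of Ero1l and 37 cells those of Ndrg1. In the cocultured library the numbers were 90, 81 and 99 of 1028 cells. Ldha, Pgk1 and Pdk1 were spread more evenly, with 113, 100 and 88 control cells and 229, 202 and 193 cocultured cells holding the same share. Among all kept cells, 98.5% (control) and 99.8% (cocultured) held an Ldha UMI, and 69.0% and 79.3% an Ankrd37 UMI. Cells were then thinned to 10000 UMIs, which left out 88 control and 109 cocultured cells that held fewer. Ldha was found in 100% of the thinned cells of both libraries, and Ankrd37 in 42.4% of 450 control cells (37.8% to 47.2%, exact binomial). In the cocultured library the share was 47.4% of 919 cells, with bounds of 44.2% and 50.7%.

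The members varied together from cell to cell, with the exception of Pdk1. Over the thinned control cells, Spearman's rho ranged from 0.17 to 0.59 (median 0.38) over the 36 pairs without Pdk1, and from -0.06 to 0.12 over the 9 pairs with it. Over the thinned cocultured cells the ranges were 0.23 to 0.61 (median 0.40) and 0.01 to 0.10. Cells of 1 library share their culture and their depth after thinning, and the rho values are a description. When control cells were ranked by the other members, Ero1l had 2023 UMIs in the 112 cells ranked highest and 70 in the 112 ranked lowest. Ndrg1 had 1255 and 58 UMIs. Pdk1 had 54 and 33 UMIs, a difference far smaller than that of Ero1l or Ndrg1.

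The cells high in the members belonged mainly to clusters built without using them. A cluster led by Ly6d, Sprr1a, Sprr2f, F3 and Clu (cluster 4, unnamed) had the highest level of 7 members in control organoids. There Ero1l was at 1921 CPM, Ndrg1 at 1200, Egln3 at 507 and Slc2a1 at 470 CPM. Pdk1 was lowest in that same cluster, at 21.8 CPM. Enterocyte-like cells had the highest Ldha, 4179 CPM. Vegfa was highest in cluster 7, at 520 CPM, a group of 25 cells with a median of 10887 UMIs led by Ccnb1ip1 and Rmrp, so that its RNA was far shallower than that of the library as a whole. In cocultured organoids cluster 4 was again highest for Ero1l, Slc2a1, Egln3, Ndrg1 and Pgk1. There Ankrd37 was highest in cluster 5 (346 CPM), and Bnip3 in enteroendocrine-like cells (404 CPM, with cluster 4 next at 248 CPM).

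With all cells summed, 8 members were lower and 2 higher in cocultured than in control organoids. Of all 13953 genes, 2.76% were at least 2-fold higher and 5.05% lower, and 0 members were either, so nothing is read from that count. The lower members ranged from Slc2a1 (70.7 against 107 CPM, log2 ratio -0.60, interval -0.65 to -0.54) and Ndrg1 (190 against 275 CPM, -0.53) to Pgk1 (826 against 962 CPM, -0.22). Ankrd37 (132 against 109 CPM, 0.27) and Ldha (2826 against 2389 CPM, 0.24) were higher. The median was -0.33 over the members and -0.11 over all genes, so on this scale most of all genes lay below 0 as well. Each condition is 1 library, so the spread between cultures is unknown.

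Inside single clusters the direction varied. Of the 11 clusters with at least 20 cells in each library, 6 had most members above 0 in cocultured over control cells and 5 had most below 0, by sign alone. Cluster 4 held 80 of the 538 control cells and 37 of the 1028 cocultured cells. It gave 14.0% of all UMIs of the control library but 60.0% of its Ero1l, 61.4% of its Slc2a1 and 60.98% of its Ndrg1 UMIs. In the cocultured library it gave 3.01% of all UMIs and 22.9%, 27.0% and 23.5% of those genes. Within cluster 4, 8 of 10 members were higher in cocultured cells, among them Ero1l (2614 against 1921 CPM), Pgk1 (3251 against 2245 CPM) and Bnip3 (248 against 161 CPM), while Ankrd37 and Egln3 were lower. Within cluster 5, led by Nupr1 and Tmem237, 9 of 10 were higher, and Ankrd37 was at 346 against 133 CPM. Within the enterocyte-like cluster 6, 9 of 10 were higher, with Ankrd37 at 439.7 against 210.5 CPM. The other enterocyte-like cluster, cluster 13 (89 cocultured and 20 control cells), had 7 of 10 below 0, and over both together 5 were above and 5 below 0. The share of all genes above 0 was 38.7% in cluster 4, 39.4% in cluster 5, 52.8% in cluster 6 and 45.5% in cluster 13. The median log2 ratios of the members were 0.44, 0.47, 0.31 and -0.16 in these clusters, and those of all genes -0.14, -0.11, 0.04 and -0.04.

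**Figure D3:**
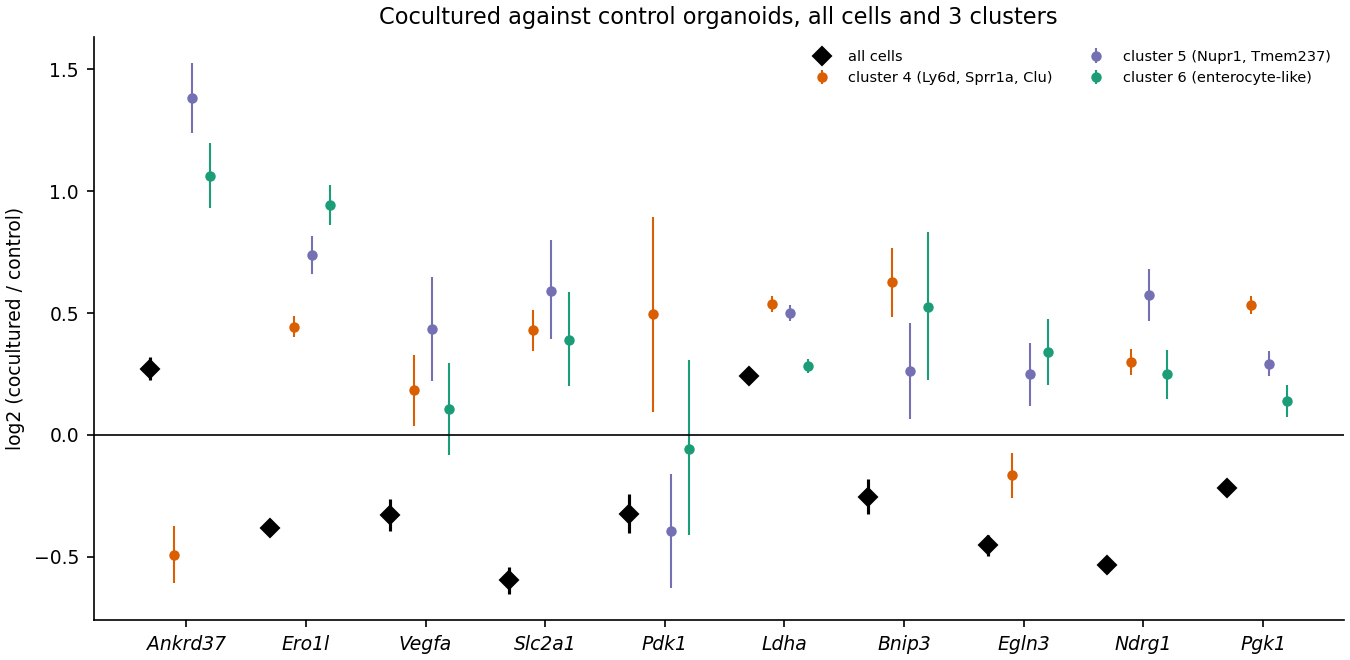
Log2 ratio of cocultured over control organoids for each member, over all cells (black diamonds) and inside 3 of the 11 clusters compared (circles), with 95% counting intervals. Ero1l, Slc2a1 and Ndrg1 lie below 0 over all cells (-0.38, -0.60 and -0.53) and above 0 inside each of the 3 clusters.

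The remaining clusters went both ways. In cluster 2, 7 of 10 members were above 0 (median log2 ratio 0.48), where 38.5% of all genes were (median -0.21), and single members there had as few as 7 control UMIs (Pdk1). In cluster 7 it was 7 of 10 (0.24) and 43.5% of all genes (-0.10), and in cluster 11 it was 6 of 10 (0.02) and 44.3% (-0.04). In cluster 1, led by Olfm4 and Ifitm3, 9 of 10 members were below 0 (-0.17), where 55.0% of all genes were (-0.03). In cluster 8 it was 7 of 10 (-0.12) and 55.4% (-0.04), and in cluster 10 it was 6 of 10 (-0.13) and 53.5% (-0.03). Ankrd37 was higher in cluster 10, at a log2 ratio of 1.96, from a control level of 6.31 CPM. In the Paneth-like cluster 6 of 10 members were below 0 (-0.12), a smaller share than the 72.1% of all genes (-0.25). With each of the 11 clusters of at least 20 cells per library given equal weight, Ero1l was at a log2 ratio of 0.45, Slc2a1 at 0.41, Ndrg1 at 0.35 and Bnip3 at 0.32, and Pdk1 (-0.24) and Egln3 (-0.15) stayed below 0. Without cluster 4, Ankrd37 was at 0.995, just under 2-fold, and Ero1l at 0.39. Both settings were chosen after the data were seen, and no member reached 2-fold in either. Of the other lists, 0 of 16 glycolysis genes passed 2-fold, and 1 of 19 other HIF targets did, Hmox1, which encodes a heme-degrading enzyme (7.73 against 20.4 CPM). Of 11 genes of mitochondrial pyruvate use 1 passed, Pdk4, which was lower at 4.002 against 8.48 CPM. Among marker lists of cell position, 3 of 4 villus tip genes were at least 2-fold lower in the cocultured library (median log2 ratio -2.77) and 3 of 6 crypt genes (median -0.98), while of 3 colon surface genes 1 was higher and 1 lower (median 0.68). All 7 genes of the epithelial panel were below 0 (median -0.40), and 1 of them passed. The part of these lists in the members' values was not tested.

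Along the tissue, most members were low where crypt genes were high. Visium spots each cover several cells, so fewer cells of a type and less RNA per cell cannot be told apart. In each section the 10% of spots richest in crypt genes were set against the 10% richest in villus tip genes or colon surface genes. In the small intestine 8 of 10 members were at least 1.5-fold lower in crypt-rich spots in both sections, where 19.2% of 10271 genes were lower and 43.1% higher. The median log2 ratio of all genes was 0.45 and 0.65 in the sections, and its mean over them was -0.18 with median-of-ratios scaling (chosen after the data were seen), so the side of 0 on which all genes lay was set by the scaling.

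Ankrd37 was at 2.55 and 3.86 CPM in crypt-rich spots of small intestinal sections 1 and 2 (5 and 7 UMIs) and at 44.3 and 54.1 CPM in tip-rich spots. Egln3 was at 30.1 and 54.1 CPM against 337 and 460 CPM. Vegfa was at 21.4 and 37.5 against 102 and 128 CPM. For these genes, as for the other 5 that passed, both tip-rich values lay above both crypt-rich values. Ldha was at 812 and 873 against 3238 and 3398 CPM, and Ero1l, Slc2a1, Bnip3 and Pgk1 were also lower. Ndrg1 did not pass in both sections (log2 ratios -0.58 and -0.75). Pdk1 was the 1 member higher in crypt-rich spots, at 19.4 and 23.7 against 12.5 and 13.2 CPM, from 37 to 44 UMIs per region. Its call was lost with the top 20% of spots, with spots low in muscle genes, with the tip list without Ada, at 2-fold and with median-of-ratios scaling, while its mean log2 ratio of 0.74 went to between 0.00 and 0.84 under these.

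In the large intestine 8 of 10 members were at least 1.5-fold lower in crypt-rich spots, where 14.8% of 11445 genes were lower and 49.3% higher. Bnip3 was at 8.18 and 3.89 CPM in crypt-rich and at 97.3 and 93.3 CPM in surface-rich spots. Egln3 was at 14.0 and 11.7 against 194 and 193 CPM. Slc2a1 was at 36.6 and 39.4 against 280 and 273 CPM, and it had log2 ratios of -2.94 and -2.79 here and of -1.13 and -1.58 in the small intestine. The difference between the tissues was not tested. Pdk1 (-0.63 and -0.48) and Ndrg1 (-0.18 and -0.12) did not pass.

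**Figure D4:**
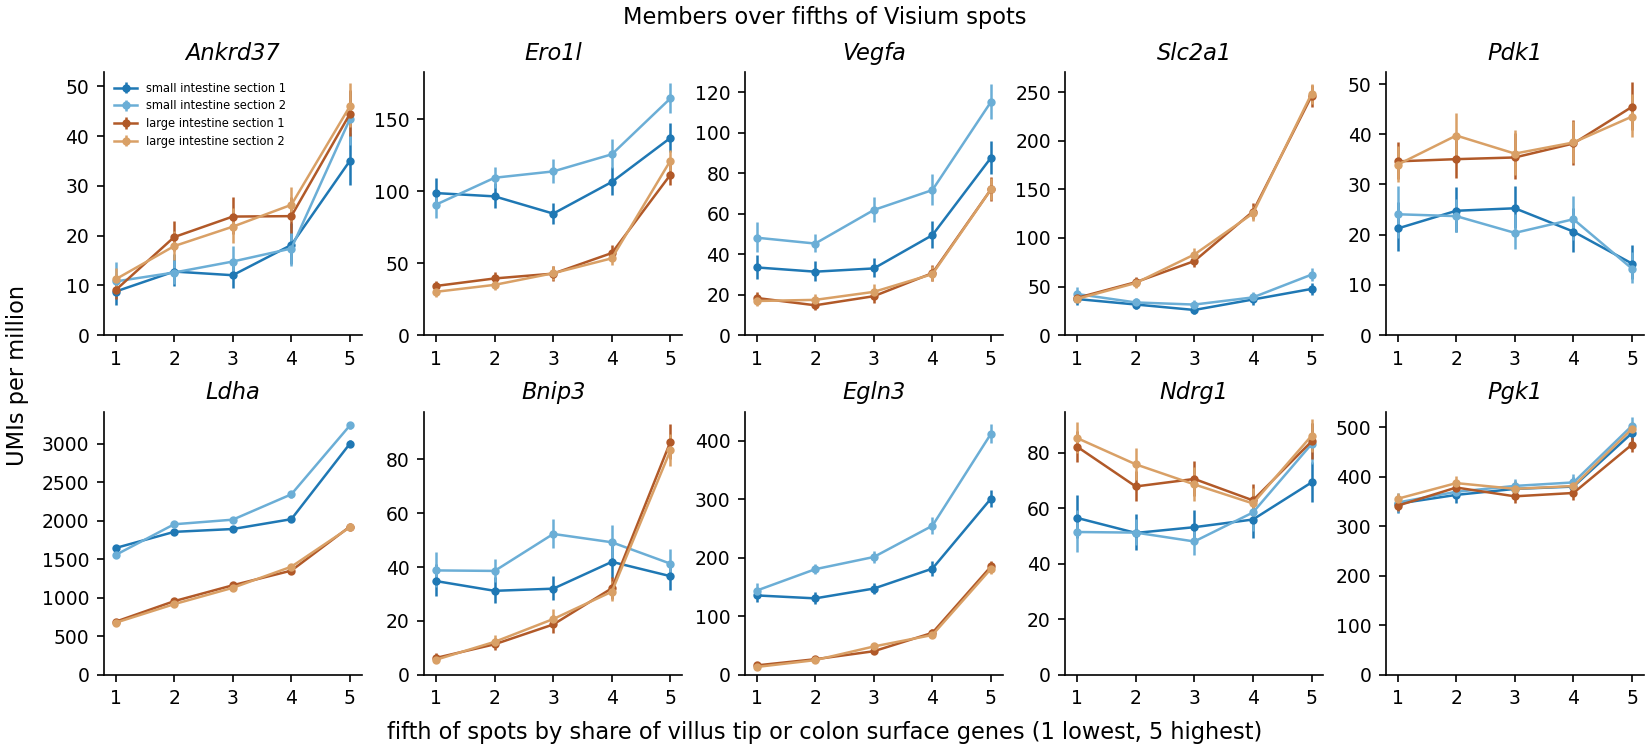
CPM of each member over 5 equal groups of Visium spots ordered by their share of villus tip or colon surface genes, 1 line per section, with 95% counting intervals. Bnip3 goes from 6.22 and 5.56 to 86.6 and 83.4 in the large intestinal sections and stays between 31.2 and 52.3 in the small intestinal ones. The groups were not selected for crypt genes.

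Over 5 equal groups of all spots ordered by tip or surface genes, the level went up at every step for 2 and 5 members in the small intestinal sections and for 7 and 7 in the large intestinal ones. Of all genes with enough UMIs, 4.7% and 5.52% did so in the small intestinal sections and 8.94% and 9.17% in the large intestinal ones. Ldha did so in all 4 sections. Bnip3 was 13.9-fold and 14.99-fold higher in the last group than in the first in the large intestine, and 1.05-fold and 1.06-fold in the small intestine. Egln3 was 11.7-fold and 13.8-fold against 2.22-fold and 2.87-fold. Pdk1 went the other way in the small intestine, with the last group at 0.671 and 0.550 of the first. The groups were not selected for crypt genes. In the small intestine the muscle panel fell from 7107 and 9732 CPM in the first group to 2083 and 1832 CPM in the last. In the large intestine it was at 695 and 662 CPM in the first group. Bnip3 was at 9.17 and 22.1 CPM in crypt-rich spots of the small intestine, against 38.3 and 46.3 CPM in tip-rich ones. The part of muscle in these values was not tested.

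The makeup of the spots moved with these values. The epithelial panel summed to 5985 and 5709 CPM in crypt-rich and 13654 and 13856 CPM in tip-rich spots, and to 6311 and 6434 against 15423 and 15775.5 CPM in the large intestine. The fibroblast panel was higher in crypt-rich spots of all 4 sections, and median UMIs were 7509 and 5414 against 13581.5 and 12559 in the small intestine. Mitochondrial genes held 3.93% and 3.62% of UMIs in crypt-rich and 5.92% and 5.79% in tip-rich spots, and 3.94% and 3.07% against 8.74% and 7.92% in the large intestine. The part of these differences in the members' values was not tested beyond the following scalings. Scaled to the epithelial panel, an alternative chosen after the data were seen, 3 of 10 members stayed lower in small intestinal crypt-rich spots (Ankrd37, Egln3 and Ldha) and 4 of 10 in large intestinal ones (Ankrd37, Slc2a1, Bnip3 and Egln3), while Ndrg1 and Pdk1 became higher in the latter. On that scale 6.1% of all genes were lower and 75.7% higher in the small intestine, and 5.02% lower and 83.6% higher in the large intestine. With median-of-ratios scaling, also chosen after the data were seen, Pdk1 in the small intestine had a mean log2 ratio of 0.00.

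Many other pathway genes were lower as well. Of 17 glycolysis genes, 11 were lower and 1 higher in small intestinal crypt-rich spots, and 13 lower and 2 higher in large intestinal ones. Slc16a3 was at 19.9 and 33.7 against 182 and 242 CPM in the small intestine, and Hk2, a hexokinase gene, at 49.6 and 40.2 against 369 and 363 CPM in the large intestine. Of the other HIF targets, 11 of 16 and 11 of 18 were lower in the small and the large intestine, and 3 and 4 were higher. Among the higher ones were Stc2, a stanniocalcin gene, in the small intestine (12.2 and 12.1 against 2.37 and 0.902 CPM) and Plod2, a collagen lysyl hydroxylase gene, in the large intestine (7.22 and 5.44 against 1.26 and 2.45 CPM). Adm was at 5.61 and 6.07 against 66.4 and 95.9 CPM in the small intestine. Of 8 oxygen sensing genes, 2 were lower and 0 higher in small intestinal crypt-rich spots, and 2 lower and 1 higher in large intestinal ones. Hif1a, a HIF subunit gene, was among the lower ones in both tissues. It fell from 132 and 148 CPM in tip-rich to 48.4 and 50.2 CPM in crypt-rich spots. From surface-rich to crypt-rich spots it went from 352 and 351 to 77.2 and 73.6 CPM. Of the genes of mitochondrial pyruvate use, 3 of 10 were higher and 1 lower in the small intestine, and 2 of 11 higher and 4 lower in the large intestine. The pyruvate dehydrogenase genes Pdha1 and Pdhb were among the higher ones in both tissues, and the citrate synthase gene Cs was lower in both. In both tissues a higher call was less frequent in this list than among all genes, so nothing is read from the higher ones.

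In dissociated epithelium, where cells are separate, part of the order was seen again. Enterocyte-like against stem-like cells of the small intestine, 4 of 10 members were at least 2-fold higher, against 14.9% of 11093 genes higher and 33.6% lower. Ldha was at 1546 against 410 CPM and Ero1l at 41.1 against 20.2 CPM, and Egln3 had 227 UMIs against 3. Colonocyte-like against stem-like cells of the large intestine, 6 of 10 were higher, against 13.5% of 12649 genes higher and 19.3% lower. Slc2a1 was at 48.1 against 9.95 CPM and Ankrd37 at 11.4 against 2.05 CPM. Ndrg1 was at 44.5 against 6.14 CPM, although it had not passed in the spots of that tissue (mean log2 ratio -0.15). Ankrd37 was not higher in the small intestine, at 4.003 CPM in enterocyte-like and 4.68 CPM in stem-like cells (log2 interval -1.06 to 0.66). Slc2a1 in the small intestine ran the other way, at 4.44 CPM in enterocyte-like and 7.64 CPM in stem-like cells (log2 interval -1.49 to -0.06), and so did Vegfa in the large intestine, at 8.27 against 13.0 CPM (-0.997 to -0.31). Pdk1 was not higher in the mature cells of either tissue, at 22.7 against 38.9 CPM and 19.0 against 21.6 CPM.

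Outside the epithelium, single members had their own high classes. Ndrg1 was highest in lymphatic endothelial-like cells in both tissues, at 719 CPM in the small and 458 CPM in the large intestine, followed by blood endothelial-like cells at 344 and 226 CPM, with intervals that did not overlap. Pdk1 was highest in T or NK-like cells of the small intestine (111 CPM, with stem-like cells next at 38.9 CPM). Ankrd37 was highest in blood endothelial-like cells of the large intestine, at 55.3 CPM, in a library with 438 Ankrd37 UMIs in all. In the small intestine it was highest in B-like cells, at 44.0 CPM, whose interval overlapped that of enteroendocrine-like cells (18.2 CPM). Vegfa was highest in fibroblast-like cells of the large intestine, at 49.5 CPM. Bnip3 was highest there in smooth muscle or pericyte-like cells, at 57.5 CPM, whose interval overlapped that of the blood endothelial-like cells. These classes differ in depth as well as type.

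Over 57 cell classes of the 4 single-cell libraries, the non-member genes whose level was most like the mean of the members were Slc16a3 (Pearson's r 0.96), Pgm1 (0.95), Ak4 (0.94), Gm15283 (0.94) and Por (0.93), out of 12148 genes. Each member set against the mean of the others gave r from 0.96 for Ero1l to 0.66 for Ndrg1 and 0.60 for Pdk1. Classes of 1 library share its preparation and depth, and organoid and tissue classes differ in level, so these values are a description.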

How the data were processed

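Droplet single-cell and Visium libraries were deposited by the authors as UMI counts per gene and barcode, made with Cell Ranger 6.0.1 (single cells) and Space Ranger 1.2.1 (Visium), per the file headers, on mm10, per the submitters' processing notes. The annotation release is not given in the sources used here. The cell filter asked for 500 genes and a mitochondrial share of 20% or less, the highest Scrublet scores were removed (0.8% of cells per 1000 cells), and spots needed 500 UMIs. Cells were clustered with scanpy (Leiden, resolution 1, 2000 variable genes, 30 components) without the members and the reported gene lists, and named from fixed markers; a large intestinal cluster with Paneth markers was left unnamed after its genes were seen, because mouse colon lacks Paneth cells. Organoid clusters were found on both organoid libraries together.

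Counts were summed per group and expressed as CPM with exact Poisson intervals, and ratios with exact intervals for 2 counts at 95%, which cover counting error only. A gene needed 20 UMIs over both groups, and counts under 3 were set to 3 in a ratio. Functions were tested on simulated data. No test was run, since every condition was 1 library or 2 technical duplicates. Alternatives were other scalings, cell filters, doublet removal, spot shares and region lists. The members and lists were chosen with earlier results of these data known. All members were named, and of other lists up to 6 called genes with the largest ratios, plus the 5 genes most like the members over classes, from log2(CPM + 10) and genes with at least 500 UMIs.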

Additional observations from a re-analysis of the deposited data

Results flagged for a closer look

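The sign of Pdk1 differed between the tissues on the CPM scale. Its log2 ratio of crypt-rich over tip-rich spots was 0.63 and 0.84 in the small intestinal sections, and of crypt-rich over surface-rich spots -0.63 and -0.48 in the large intestinal sections, so every section of one tissue lay on the opposite side of 0 from every section of the other. The difference was not tested, the sections of a tissue are technical duplicates, and the regions rest on different gene lists in the 2 tissues. The opposite signs depended on the scaling. On the epithelial panel its mean log2 ratio was above 0 in both tissues, at 1.97 and 0.74, and with median-of-ratios scaling it was 0.00 in the small and -1.28 in the large intestine. Both scalings were chosen after the data were seen.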

How the results depend on the processing

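No paired analysis was possible because no comparison rests on a test and the sections of a tissue are technical duplicates. Organoids against tissue epithelium kept 9 or 10 of 10 members at least 2-fold higher under every alternative run. Coculture against control kept 0 at 2-fold under every alternative that held the 2-fold limit and used more than a single cluster. At 1.5-fold, 1 was lower. Within single clusters, Ankrd37 was at least 2-fold higher in clusters 2, 5, 6 and 10 (log2 ratios 1.02, 1.38, 1.06 and 1.96). No other member passed 2-fold in any of the 11 clusters compared. In the small intestine the count of members higher in crypt-rich spots went from 1 to 0 with the top 20% of spots, with spots low in muscle genes, with the tip list without Ada, at 2-fold and with median-of-ratios scaling, and the count lower ranged from 8 to 9 when either section was left out, with 1 higher in both, and was 7 with the top 20% of spots. In the large intestine it ranged from 8 to 9 lower when either section was left out, with 0 higher, and median-of-ratios scaling gave 10 lower. It fell to 7 without mitochondrial and ribosomal protein genes, with the top 20% of spots, with the proliferation genes added to the crypt list and at 2-fold, each time with the call of Pgk1 lost (mean log2 ratio -0.68). Epithelial-panel and median-of-ratios scaling of the spots were chosen after the data were seen. Scaled to the epithelial panel, 3 were lower in the small intestine, where Ero1l (0.058) and Pgk1 (0.013) changed sign, as did Ndrg1 (0.57 from -0.67), which had not passed. On the same scale 4 were lower and 2 higher in the large intestine, where Pgk1 changed sign (0.61), as did Pdk1 (0.74 from -0.55) and Ndrg1 (1.14 from -0.15), which had not passed. Scaling also moved the split of all calls. The share of calls that were higher was 35.3% for coculture against control and 45.8% with median-of-ratios scaling, 33.6% for cocultured organoids against tissue and 43.8% without mitochondrial and ribosomal protein genes or 45.5% with median-of-ratios scaling. In the small intestinal spots it was 69.2%, 41.3% with median-of-ratios scaling and 92.5% on the epithelial panel, and in the large intestinal spots 76.9%, 48.0% and 94.3%. Few UMIs limit Ankrd37, Bnip3 and Pdk1 in the spots; Bnip3 had 18 and 40 in small and 34 and 15 in large intestinal crypt-rich spots.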
